A study of Rattus norvegicus with 33 samples.

Results

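The potassium channel genes were taken as every gene on the array whose symbol begins with Kcn, the stem used for potassium channel pores and their accessory subunits. Of 13337 genes with a symbol on the rat bead array, 81 carried the stem, and they were read by 86 of 22523 probes. A probe was kept where its detection p-value, the chance of such a signal from negative-control beads, was below 0.05 on at least 75% of the arrays of any of the 9 groups. By that rule 53 of the 86 probes, for 51 of the 81 genes, were kept (61.6%), against 12029 of all 22523 probes (53.4%).

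The ganglia were L4 and L5 dorsal root ganglia (DRG) of female Sprague-Dawley rats (Sasco) aged 13 weeks. The question was how a collagen sponge on the lumbar spine, with or without the recombinant human growth factor BMP-2 (rhBMP-2), alters transcripts in the neighbouring ganglia. Rats received absorbable collagen sponges (ACS) soaked in rhBMP-2 (rhBMP-2/ACS) or in vehicle (vehicle/ACS), or the same surgery with no implant (no sponge). Ganglia were taken 1, 3 or 7 days post-surgery (dps). Each group held 4 rats, or 3 rats at 3 dps, with 1 array per rat, which makes 33 arrays. For the no sponge group at 7 dps, 1 rat per array was assumed. Every rat had undergone the operation, so no group stands for unoperated ganglia. The sponges lay on 1 side of the spine, over the L4 and L5 transverse processes. The side of the ganglion was named only for sponge-bearing rats and was assumed to be the operated side in the others. On each array 10142 to 11674 probes were detected, and the correlation between arrays of a group was 0.983 at the lowest with a median of 0.990. Slide and scan date were not given in the sources used here, and the array names differed by day, so levels on different days cannot be told apart from a difference between runs and were not compared. At 7 dps the 4 no sponge arrays came last in the numbering of the array names, after all sponge arrays. The paper lists no such rats for arrays on that day. A separate cohort or run of these arrays therefore cannot be told apart from an effect of the sponge at 7 dps.

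Potassium channels let potassium leave the cell and so set the resting potential of sensory neurons, end each action potential and limit repetitive firing. Voltage-gated pores open on depolarization, two-pore-domain pores carry a background leak, inward rectifiers hold the membrane near the potassium potential, and calcium- or sodium-activated pores follow ion entry. Auxiliary subunits such as the KChIP proteins, which bind A-type pores of the Kv4 kind, set how many channels reach the membrane and how fast they inactivate. Modifier subunits form no channel of their own but alter the current of the pores they join. In the ganglion, neurons express most of these genes, satellite glia are known for the inward rectifier encoded by Kcnj10, and immune cells carry the intermediate-conductance pore encoded by Kcnn4.

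Detection differed between the subfamilies. Among voltage-gated pores 19 of 29 probes were kept, covering Kcna1, Kcna2, Kcna4, Kcna5 and Kcna6 of the Kv1 family, Kcnb2 of Kv2, Kcnc1 and Kcnc2 of Kv3, Kcnd1 to Kcnd3 of Kv4, Kcnh1, Kcnh2, Kcnh6, Kcnh7 and Kcnh8 of the EAG, ERG and ELK group, and Kcnq5 of Kv7. Kcna3, Kcna7, Kcna10, Kcnh3, Kcnh4, Kcnh5, Kcnq1 and Kcnq3 were not kept. Among the modifier subunits 4 of 10 probes were kept (Kcng1, Kcns1, Kcns3 and Kcnv1), and Kcnf1, Kcng2 to Kcng4, Kcns2 and Kcnv2 were not. Auxiliary subunits gave 11 of 16 probes, namely Kcnab1 to Kcnab3, Kcnip1 to Kcnip4, Kcne3, Kcne4, Kcnmb2 and Kcnmb4, while Kcne1, Kcne2, Kcnmb1, Kcnmb3 and the regulator Kcnrg were not kept. Inward rectifiers gave 8 of 14 (Kcnj4, Kcnj5, Kcnj8, Kcnj9, Kcnj11, Kcnj12, Kcnj13 and Kcnj14), and two-pore-domain pores 6 of 11 (Kcnk1, Kcnk2, Kcnk3, Kcnk10, Kcnk12 and Kcnk15). The inward rectifiers not kept were Kcnj1, Kcnj2, Kcnj3, Kcnj10, Kcnj15 and Kcnj16, and the two-pore-domain pores not kept were Kcnk5, Kcnk9, Kcnk13 and Kcnk18. Calcium- or sodium-activated pores gave 5 of 6 (Kcnn1, Kcnn3, Kcnn4, Kcnt1 and Kcnt2), with Kcnma1, the large-conductance pore, the one not kept.

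Of the 53 kept probes, 31 were detected on all 33 arrays and 32 met the rule in all 9 groups. Another 19 met it in 2 to 8 groups, and 2 met it in 1 group only. These 2 were Kcne4, kept through the no sponge group at 1 dps, and Kcnj5, kept through the no sponge group at 7 dps. Kcnj11, Kcnj13, Kcnk3 and Kcnk10 met the rule in the 3 groups at 7 dps and in no group on the earlier days. A probe kept only through the group in which it is bright must differ from the others to some degree, and this applies to the Kcnj5 values given for 7 dps. The kept Kcnh8 probe met the rule only in the 2 sponge groups at 7 dps, so the rule also binds it against no sponge on that day. It is nonetheless part of the sign counts and medians given there. The other Kcnh8 probe was detected on 1 of 33 arrays and was not kept.

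Promoters of 35 of the 51 kept genes were matched by gene identifier in RefSeq (build GRCr8), each read as the 250 bases before the first listed start. Kcnc1, Kcnip2 and Kcnh6 are shown as examples of genes that were lower in a comparison described below. Capitals mark, on either strand, GGCGCC, a sequence bound by the BMP effectors Smad1 and Smad5, TTCAGCACC, part of the site of the neuronal repressor REST, and GGGCGG, the GC box. The Kcnc1 promoter (chr1:106038997-106039246, plus strand, 74.4% G or C) held GGCGCC 171 and 82 bases before the start and GC boxes at 244, 219 and 176, of which the last shares a base with the first GGCGCC.
Kcnc1: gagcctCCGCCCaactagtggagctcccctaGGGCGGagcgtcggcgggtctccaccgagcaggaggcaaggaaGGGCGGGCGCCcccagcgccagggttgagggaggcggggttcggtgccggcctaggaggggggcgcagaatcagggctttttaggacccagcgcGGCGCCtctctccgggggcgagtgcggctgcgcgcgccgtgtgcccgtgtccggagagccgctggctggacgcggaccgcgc
The Kcnip2 promoter (chr1:254613899-254614148, minus strand, 68.0% G or C) held GC boxes 127 and 56 bases before the start and none of the other motifs searched.
Kcnip2: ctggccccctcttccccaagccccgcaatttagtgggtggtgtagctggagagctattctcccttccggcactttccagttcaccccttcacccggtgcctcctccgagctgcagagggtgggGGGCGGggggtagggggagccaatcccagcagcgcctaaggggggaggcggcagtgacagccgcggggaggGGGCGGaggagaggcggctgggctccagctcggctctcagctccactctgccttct
The Kcnh6 promoter (chr10:91449401-91449650, plus strand, 69.6% G or C) held TTCAGCACC 206 bases before the start, GGCGCC at 65 and GC boxes at 96 and 69, of which the latter overlaps the GGCGCC.
Kcnh6: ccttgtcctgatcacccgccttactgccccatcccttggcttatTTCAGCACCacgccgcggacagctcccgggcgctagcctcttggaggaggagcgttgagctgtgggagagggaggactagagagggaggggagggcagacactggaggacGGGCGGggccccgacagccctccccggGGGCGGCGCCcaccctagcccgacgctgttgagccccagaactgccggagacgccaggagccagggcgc
Over the 35 promoters, GGCGCC was present in 6 (17.1%, against 9.24% of 27457 rat promoters), TTCAGCACC in 1 (2.86% against 0.317%) and GGGCGG in 18 (51.4% against 32.4%). The AP-1 sequence TGANTCA and the cyclic AMP response element TGACGTCA were found in 0 of 35 (6.36% and 1.70% of all promoters), and TATAAA in 1 (2.86% against 13.1%). The median G or C content was 59.6% in the 35 and 52.0% in all promoters. Of the genes called in a within-day comparison 11 had a promoter entry. Among these 11, GGCGCC was found in Kcnc1, Kcnh6 and Kcnmb4, and TTCAGCACC in Kcnh6 alone. The promoters shown thus hold more of these sequences than the 11 do as a set. All these matches describe letters in a window and say nothing of binding.

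Signals are given as log2 of the background-corrected, quantile-normalized intensity, and probes were compared within a day by limma with Benjamini-Hochberg adjustment over all 12029 kept probes at 0.05. In 4 of the 9 within-day comparisons 2 to 8 of the 53 probes passed, all on lower values but Kcnmb4 at 7 dps. At 3 dps, 7 of 53 were lower and 0 higher in rhBMP-2/ACS than in vehicle/ACS (13.2%, against 10.5% of all probes in either direction and 4.56% lower). Against no sponge at 3 dps, 8 were lower and 0 higher in rhBMP-2/ACS (15.1%, against 7.55% in either direction and 3.33% lower). At 7 dps, 5 were lower and 1 higher in vehicle/ACS than in no sponge (11.3%, against 10.2% in either direction and 3.96% lower), and 2 were lower in rhBMP-2/ACS than in no sponge (3.77%, against 3.63% in either direction and 1.04% lower). The shares in either direction were near those of all probes at 7 dps. For rhBMP-2/ACS versus vehicle/ACS at 3 dps the share was not far above that of all probes either. Of the lower calls, 1 in each comparison at 7 dps was Kcnj5, bound by the detection rule. Among all probes, the higher calls outnumbered the lower in each of these 4 comparisons (719 against 549, 507 against 401, 748 against 476 and 312 against 125). With the arrays scaled to equal medians instead of equal distributions, the same 4 comparisons gave 1 higher and 2 lower, 3 lower, 1 higher and 2 lower, and 1 lower potassium channel probe, and the lower share of all calls moved from 43.3% to 10.6%, from 44.2% to 20.6%, from 38.9% to 8.70% and from 28.6% to 3.34%. The comparisons of 1 day share arrays, so their counts are not independent.

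**Figure D1:**
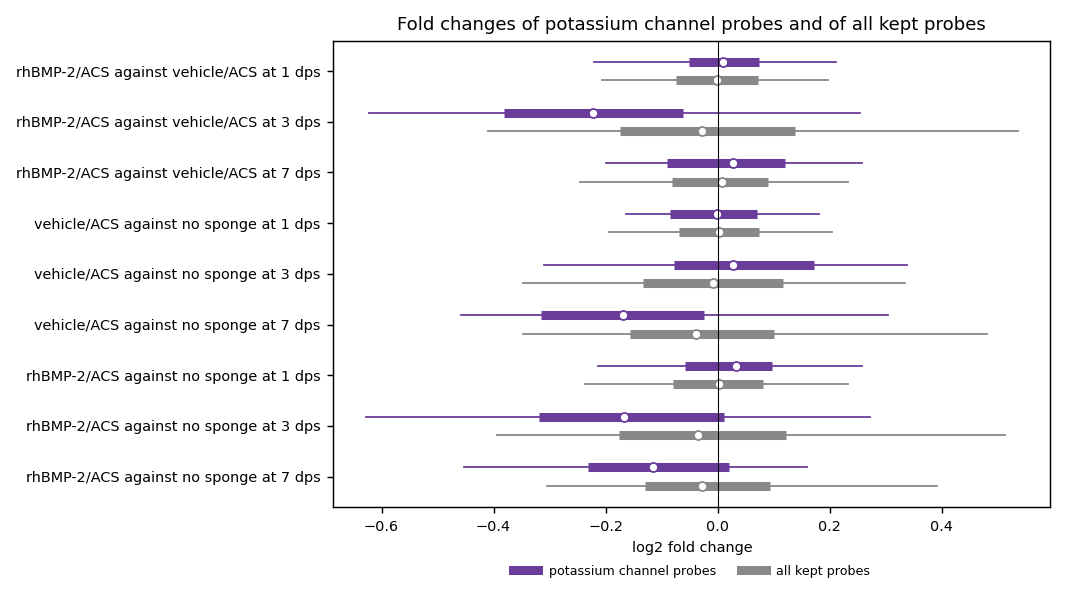
Log2 fold changes (horizontal axis) of the 53 potassium channel probes (purple) and of all 12029 kept probes (grey) in the 9 within-day comparisons, where the circle is the median, the thick bar the quartiles and the thin line the 5th to 95th percentile. The purple medians lie at -0.22 for rhBMP-2/ACS versus vehicle/ACS at 3 dps and at -0.17 for vehicle/ACS against no sponge at 7 dps, and at 1 dps both colours are centred near 0.

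At 1 dps no potassium channel probe passed the limma test in any of the 3 comparisons. Over all probes, 0% were called in each of them. At an unadjusted p below 0.05 there was 1 potassium channel probe for rhBMP-2/ACS versus vehicle/ACS (3.79% of all probes), 1 for vehicle/ACS against no sponge (3.43%) and 3 for rhBMP-2/ACS against no sponge (6.24%). Between rhBMP-2/ACS and vehicle/ACS 24 of 53 fold changes were negative (50.3% of all probes), and the median log2 fold change was 0.01. At the thresholds of the study, a fold change combined with an unadjusted p, the count was also 0 in each of the 3 comparisons (0.0998%, 0.216% and 0.191% of all probes).

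At 3 dps the genes lower in rhBMP-2/ACS than in vehicle/ACS were voltage-gated pores (Kcnh2, Kcnc1), a modifier (Kcns3), KChIP subunits (Kcnip1, Kcnip3), an inward rectifier (Kcnj12) and a two-pore-domain gene (Kcnk12). Of the 53 fold changes 42 were negative (79.2%, against 55.2% of all probes), with a median of -0.22 on the log2 scale against -0.03. Kcnh2 encodes the ERG pore, whose slow closing dampens excitability. Its log2 signal was 6.33, 6.10 and 5.98 in the rhBMP-2/ACS rats, 6.78, 6.93 and 6.76 in the vehicle/ACS rats and 6.75, 6.96 and 6.69 in the no sponge rats. All 3 rhBMP-2/ACS rats lay below all 6 others. The change against vehicle/ACS was -0.69 (SE 0.145, adjusted p = 0.00309), a signal 1.61-fold lower. Kcnc1 encodes a fast Kv3 pore that allows rapid firing. Its signal was 6.37, 6.19 and 6.13 in rhBMP-2/ACS, 6.84, 6.87 and 6.73 in vehicle/ACS and 6.73, 6.94 and 6.56 in no sponge. The rhBMP-2/ACS rats again lay below all others, and the change against vehicle/ACS was -0.58 (SE 0.132, adjusted p = 0.00498). The other Kv3 gene, Kcnc2, was read by 3 probes, of which 0 passed in this comparison.

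Kcns3, a silent modifier that joins Kv2 pores, gave 10.34, 10.19 and 9.86 in rhBMP-2/ACS against 10.48, 10.65 and 10.62 in vehicle/ACS. The groups did not overlap and the change was -0.45 (SE 0.135, adjusted p = 0.0301, 1.37-fold lower). The KChIP gene Kcnip1 gave 7.07, 7.29 and 6.32 against 7.73, 7.57 and 7.78, the lowest value being that of replicate 3. Its change was -0.80 (SE 0.194, adjusted p = 0.00796, 1.75-fold lower). Kcnip3, which encodes the KChIP also known as DREAM, a calcium sensor that can act as a transcriptional repressor, gave 7.39, 7.40 and 7.33 against 7.82, 7.91 and 7.57. Its rhBMP-2/ACS values lay within a narrow band below the vehicle/ACS values, and the change was -0.39 (SE 0.123, adjusted p = 0.0382, 1.31-fold lower). Kcnip2 and Kcnip4 did not pass in this comparison.

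Kcnk12, a two-pore-domain gene with no well-established current, gave 5.47, 5.67 and 5.05 in rhBMP-2/ACS against 5.90, 6.23 and 6.29 in vehicle/ACS, and 5.46, 5.73 and 5.96 in no sponge. It was detected on 2 of 3 rhBMP-2/ACS arrays. The rhBMP-2/ACS rats lay below the vehicle/ACS rats but overlapped the no sponge rats. Its change against vehicle/ACS was -0.74 (SE 0.193, adjusted p = 0.0136, 1.67-fold lower). Kcnj12, a strong inward rectifier of the Kir2 kind, gave 6.63, 6.26 and 6.35 against 7.05, 6.94 and 6.85 in vehicle/ACS and 6.77, 6.80 and 6.53 in no sponge. The change against vehicle/ACS was -0.53 (SE 0.141, adjusted p = 0.0153, 1.44-fold lower), with no overlap between those 2 groups and an overlap with no sponge. Over all 53 probes, 18 had an unadjusted p below 0.05 (34.0%, against 26.0% of all probes). Groups did not overlap for 15 probes that were lower and 1 that was higher in rhBMP-2/ACS, against 12.2% and 10.6% of all probes. The 1 higher probe, singled out after its values were seen, was Kcnn4, the intermediate-conductance calcium-activated pore of immune cells, at 7.17, 7.01 and 7.23 against 6.36, 6.82 and 6.72. Its difference of 0.50 (SE 0.200, adjusted p = 0.105) did not pass, and it passed with the arrays scaled to equal medians (0.63, adjusted p = 0.0483), where Kcnh2 and Kcnk12 were the lower calls.

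**Figure D2:**
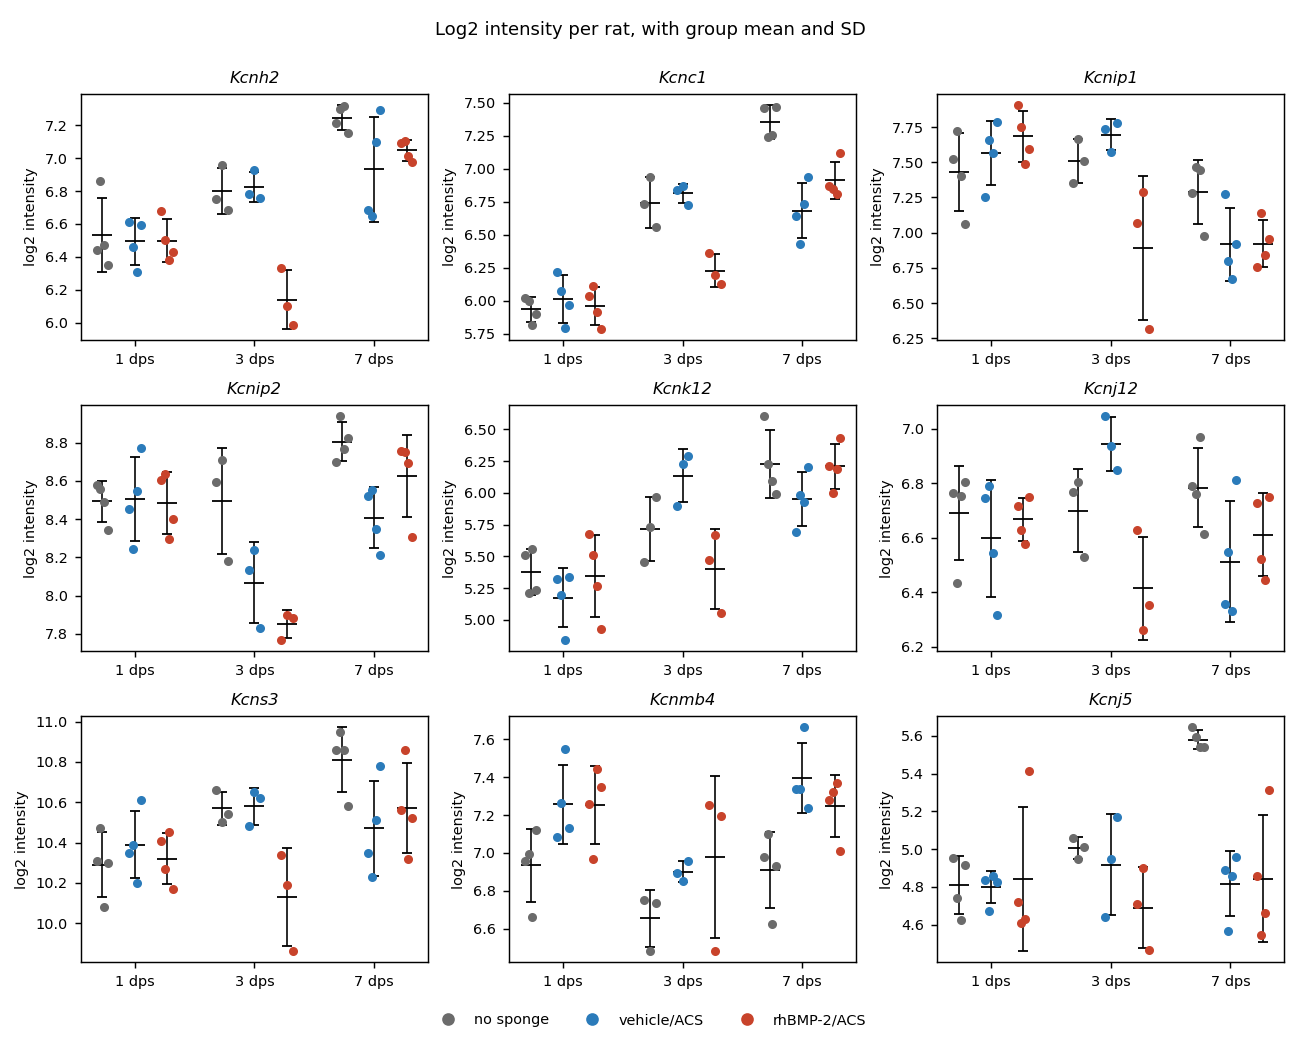
Log2 signal (vertical axis) of 9 potassium channel genes in each of the 33 rats, with the day in dps on the horizontal axis, 1 point per rat, colour for the group and bars for the group mean and SD. For Kcnh2 and Kcnc1 the 3 rhBMP-2/ACS rats at 3 dps sit below the other 6, at 5.98 to 6.33 and 6.13 to 6.37, and at 7 dps the 4 no sponge rats lie above the 8 sponge-bearing rats for Kcnc1.

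These calls leaned on 1 array. Without rhBMP-2/ACS replicate 3 at 3 dps, 1 of the 7 passed (Kcnh2, adjusted p = 0.0436), and the fold changes kept their sign, with Kcnc1 at -0.53 (adjusted p = 0.0535) and Kcnip1 at -0.52 (adjusted p = 0.142). Without vehicle/ACS replicate 2 at 3 dps, 4 were called. When limma was fitted to the compared groups only, 0 of the 7 passed. Among the arrays at 3 dps, rhBMP-2/ACS replicate 3 had the lowest mean signal over the 53 probes, 6.33, the next being 6.45 in rhBMP-2/ACS replicate 2. It also had the lowest mean over 13 neuron markers (11.27) and the highest mean over 11 macrophage markers (7.86) of the arrays on that day.

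Markers of other cells moved with these changes. In rhBMP-2/ACS versus vehicle/ACS at 3 dps, 8 of 11 macrophage markers were higher (Aif1, C1qa, C1qb, C1qc, Cd14, Fcer1g, Cybb and Tyrobp) with a median over the 11 of 1.05, and their summed signal ranged from 3373 to 6151 against 1301 to 2611. Of 8 fibroblast markers 7 were higher (median 0.90, summed signal 21204 to 26482 against 12036 to 20212), as were 4 of 6 endothelial markers (Vwf, Egfl7, Esam and Sox18). Of 13 neuron markers 4 were lower (Snap25, Stmn2, Nefm and Uchl1), with a median of -0.24 and a summed signal of 78917 to 83697 against 86550 to 90982. Of 8 satellite glia and Schwann cell markers 1 was higher, Gfap, which marks reactive glia. Of 8 skeletal muscle and 3 smooth muscle or pericyte markers, 1 was higher, Des, which both lists hold. Among the lists, Ptprc of the macrophage list and Calca of the neuron list were on the array but not kept. The part of these shifts in the potassium channel result was not tested. In whole ganglia, fewer cells of a type and less RNA per cell cannot be told apart.

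**Figure D3:**
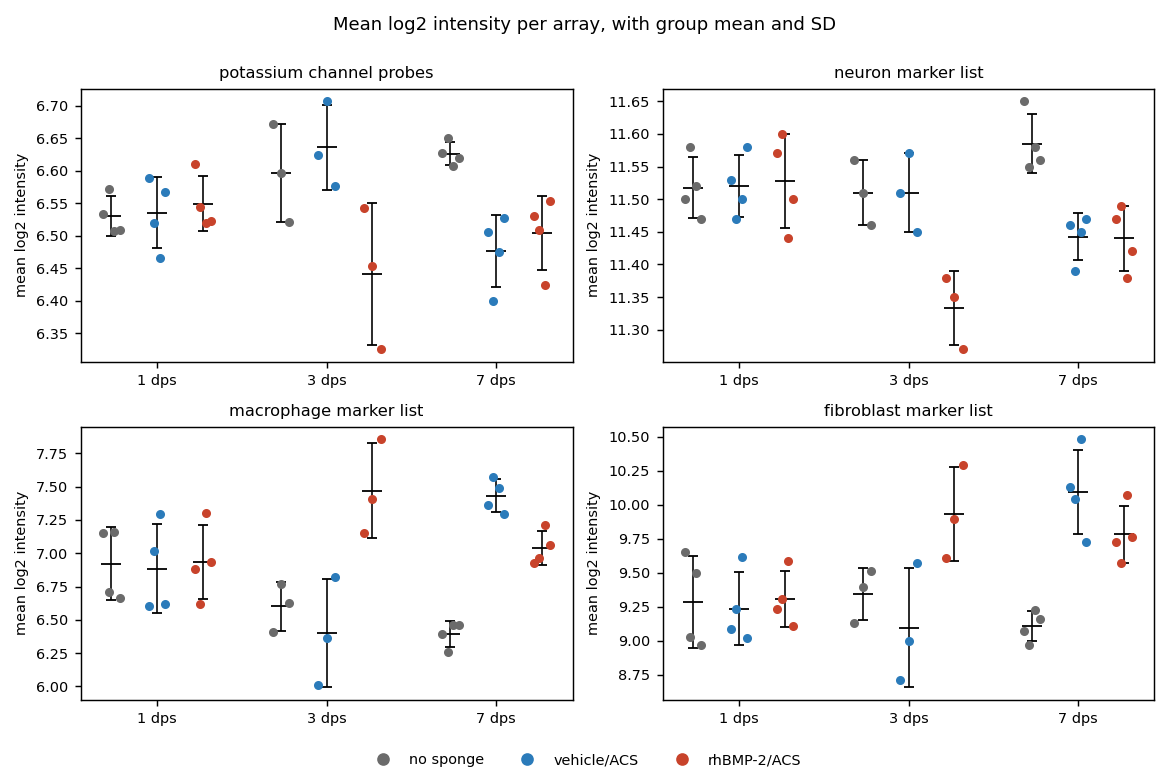
Mean log2 signal (vertical axis) of the potassium channel probes and of the neuron, macrophage and fibroblast marker lists on each of the 33 arrays, grouped by day in dps and coloured by group, 1 point per array, with bars for the group mean and SD. At 3 dps the 3 rhBMP-2/ACS arrays lie lowest for the neuron list, at 11.27 to 11.38, and highest for the macrophage list, at 7.15 to 7.86.

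Against no sponge at 3 dps, which uses the same rhBMP-2/ACS arrays, 8 genes were lower in rhBMP-2/ACS. Kcnip2, the KChIP best known with the Kv4 pores of heart, gave 7.77, 7.90 and 7.88 against 8.59, 8.71 and 8.18 in no sponge, with the vehicle/ACS rats at 8.13, 8.24 and 7.83. The rhBMP-2/ACS and no sponge groups did not overlap, and the change was -0.64 (SE 0.140, adjusted p = 0.0051, 1.56-fold lower). Kcnk2 encodes TREK-1, a leak pore gated by stretch and heat. It gave 8.09, 7.74 and 7.26 against 8.26, 8.54 and 8.22 in no sponge, with vehicle/ACS at 8.03, 8.04 and 7.86. Its change was -0.64 (SE 0.144, adjusted p = 0.0067, 1.56-fold lower), the rhBMP-2/ACS values spreading more widely than those of the other groups. Kcns1, a modifier of Kv2 pores studied in sensory neurons for pain sensitivity, gave 7.23, 6.87 and 6.74 against 7.41, 7.54 and 7.37, a change of -0.50 (SE 0.150, adjusted p = 0.0384, 1.41-fold lower). The 3 rhBMP-2/ACS rats lay below the 3 no sponge rats.

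The other 5 were among those lower against vehicle/ACS as well, in fits that share the rhBMP-2/ACS arrays. Kcnh2 changed by -0.66 (adjusted p = 0.00549), Kcnc1 by -0.51 (adjusted p = 0.0176), Kcnip1 by -0.62 (adjusted p = 0.0468), Kcns3 by -0.44 (adjusted p = 0.0443) and Kcnip3 by -0.39 (adjusted p = 0.048). The median over the 53 probes was -0.17 against -0.04 for all probes. Groups did not overlap for 15 lower probes and 1 higher, against 12.4% and 9.88% of all probes, and the higher one was again Kcnn4 at 0.53 (adjusted p = 0.0999). Among the voltage-gated pores outside the threshold was Kcnd3, a Kv4 A-type pore, at 9.26, 8.99 and 9.02 against 9.92, 9.53 and 9.36 (-0.51, SE 0.185, adjusted p = 0.0834). Without rhBMP-2/ACS replicate 3, Kcnip2 alone passed (adjusted p = 0.0335). Without no sponge replicate 1 or 2 the count was 3 or 2, and in a fit of the compared groups only it was 0. Of the marker lists, 8 of 11 macrophage, 3 of 8 fibroblast and 3 of 6 endothelial genes were higher. Of 13 neuron genes 3 were called lower (Nefm, Uchl1 and Tubb3), while 12 fold changes were negative, with a median of -0.16. Gfap was higher and Mbp lower, and the part of these markers in the result was not tested.

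Between vehicle/ACS and no sponge at 3 dps, 0 of 53 probes passed (0.341% of all probes were called), with 8 at an unadjusted p below 0.05 (15.1%, against 13.7%). At the thresholds of the study the count was 0 as well (0.532% of all probes). Groups did not overlap for 5 higher and 3 lower probes, against 7.16% and 7.79% of all probes. Kcna2, a Kv1 pore of the juxtaparanode, gave 5.23, 5.80 and 5.56 in vehicle/ACS against 5.05, 5.06 and 5.11 in no sponge, a difference of 0.46 (adjusted p = 0.159), with the no sponge signals near the detection limit on these arrays. Kcnk1, the leak pore TWIK-1, gave 11.14, 11.27 and 11.22 against 10.94, 10.83 and 10.87, a difference of 0.33 (adjusted p = 0.214). The differences of Kcnk2 (-0.36, adjusted p = 0.256), Kcna5 (-0.38, adjusted p = 0.284) and the large-conductance channel subunit Kcnmb2 (0.32, adjusted p = 0.339) did not pass either, although none of these pairs of groups overlapped.

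In vehicle/ACS against no sponge at 7 dps, 6 of 53 probes passed, a share near that of all probes. The no sponge arrays of this day were numbered apart, so a cohort or run difference cannot be told apart from the sponge. Kcnc1, Kcnc2, Kcnh6 and Kcnip2 were lower and Kcnmb4 was higher in vehicle/ACS, Kcnj5 was the one that had to differ, and 41 of 53 fold changes were negative (median -0.17 against -0.04 for all probes, of which 58.1% were negative). Kcnc1 gave 6.64, 6.43, 6.73 and 6.94 in vehicle/ACS, 6.87, 6.85, 6.81 and 7.12 in rhBMP-2/ACS and 7.46, 7.24, 7.25 and 7.47 in no sponge. Every no sponge rat lay above every sponge-bearing rat. The change in vehicle/ACS was -0.67 (SE 0.114, adjusted p = 0.000204, 1.59-fold lower). Kcnc2 was read by 3 probes, all kept and numbered here by their identifiers. Probe 2 gave 9.51, 9.28, 9.51 and 9.72 in vehicle/ACS against 9.86, 9.87, 9.92 and 9.81 in no sponge, without overlap, and changed by -0.36 (SE 0.0914, adjusted p = 0.00961, 1.29-fold lower). The other 2 Kcnc2 probes did not pass, so the probes of this gene did not give the same call. Kcnh6, an ERG pore of neurons, gave 7.47, 7.26, 7.31 and 7.50 against 8.02, 7.74, 7.91 and 7.91, without overlap, and changed by -0.51 (SE 0.107, adjusted p = 0.00207, 1.42-fold lower).

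Kcnip2 gave 8.52, 8.55, 8.35 and 8.21 in vehicle/ACS against 8.70, 8.94, 8.77 and 8.82 in no sponge, a change of -0.40 (SE 0.121, adjusted p = 0.033, 1.32-fold lower) with no overlap. Kcnmb4, the neuronal beta subunit of large-conductance calcium-activated channels, moved the other way, at 7.34, 7.34, 7.66 and 7.24 against 6.98, 7.10, 6.63 and 6.93. All vehicle/ACS rats lay above all no sponge rats, and the change was 0.48 (SE 0.147, adjusted p = 0.0325, 1.40-fold higher). The background for higher probes in this comparison was 6.22%. Kcnj5, a G protein-gated inward rectifier, gave 4.89, 4.57, 4.86 and 4.96 in vehicle/ACS, 4.86, 4.55, 4.66 and 5.31 in rhBMP-2/ACS and 5.65, 5.60, 5.54 and 5.54 in no sponge. It was detected in 4 of 4 no sponge rats and in 1 of 4 rats of each sponge group, close to the detection limit. These values are a description with no test, since the probe was kept only through the no sponge group. Groups did not overlap for 8 lower probes, Kcnj5 among them, and 1 higher, against 8.61% and 8.47% of all probes. Just outside the threshold were Kcns3 (-0.35, adjusted p = 0.0569), Kcns1 (-0.37, adjusted p = 0.0644), Kcnip3 (-0.28, adjusted p = 0.0887) and Kcnh2 (-0.32, adjusted p = 0.109).

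Over the fits that left out 1 array, the count in vehicle/ACS at 7 dps ran from 4 to 8. Kcnip2 and Kcnmb4 each lost the call in 5 of the 8 omissions (adjusted p up to 0.1 and 0.129), and Kcnc2 probe 2 lost it without vehicle/ACS replicate 2 (adjusted p = 0.0627). In a fit of the compared groups only all 6 remained called. With equal medians 3 of the 6 remained called (Kcnc1, Kcnj5 and Kcnmb4). Kcnj5, bound by the detection rule, is in each of these counts and is no sign that the calls held. Marker lists moved here too. Of 11 macrophage markers 8 were higher in vehicle/ACS (median 1.05, summed signal 3997 to 5120 against 1699 to 2031), as were 7 of 8 fibroblast markers (median 0.99, 23634 to 33877 against 14469 to 16815). Of 13 neuron markers 2 were called lower, Syt1 and the nociceptor sodium channel Scn10a, with a summed signal of 86749 to 90249 against 93690 to 96990. Of the 13 neuron fold changes 11 were negative, with a median of -0.13 against -0.04 for all probes. Among glial markers Gfap was higher and Fabp7 lower. Their part in the result was not tested.

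rhBMP-2/ACS against no sponge at 7 dps gave 2 lower genes on the same no sponge arrays, Kcnc1 and Kcnj5. Kcnc1 changed by -0.44 (SE 0.114, adjusted p = 0.0243, 1.36-fold lower), and Kcnj5 was again bound by the detection rule and is given no test. Of the 53 fold changes 38 were negative (56.4% of all probes), with a median of -0.12 against -0.03. Groups did not overlap for 9 lower probes, Kcnj5 among them, and 1 higher, against 6.06% and 6.23% of all probes. Kcnc2 probe 2 gave 9.65, 9.49, 9.47 and 9.60 in rhBMP-2/ACS, a difference of -0.31 (adjusted p = 0.0518). Kcna4, the A-type Kv1 pore of small sensory neurons, gave 5.34, 6.05, 5.21 and 5.93 in rhBMP-2/ACS against 6.32, 6.33, 6.23 and 6.11 in no sponge, a difference of -0.62 (adjusted p = 0.0644) in which the rhBMP-2/ACS rats split into a lower and a higher pair. Kcnt2, a sodium-activated pore of the Slo2 kind, gave 4.96, 5.31, 5.06 and 5.06 against 5.31, 5.49, 5.55 and 5.62, a difference of -0.39 (adjusted p = 0.0756), with the highest rhBMP-2/ACS rat level with the lowest no sponge rat. The higher probe was Kcnn4, at 7.49, 7.32, 7.90 and 7.46 against 7.18, 7.10, 7.16 and 7.25 (0.37, adjusted p = 0.255). Kcnc1 lost its call without rhBMP-2/ACS replicate 1, 2 or 3 or no sponge replicate 1 or 4 (adjusted p up to 0.104), which left Kcnj5 as the one call in 4 of these omissions. Without rhBMP-2/ACS replicate 2, Kcna4 (adjusted p = 0.0249) and Kcnt2 (adjusted p = 0.0463) passed beside it. With equal medians Kcnj5, bound by the detection rule, was the only call left. Of the markers 4 of 11 macrophage and 3 of 8 fibroblast genes were higher, as were Gfap, the smooth muscle gene Tagln and the skeletal muscle gene Tnnt3, while the neuron gene Scn9a and the glial gene Fabp7 were lower. Of 13 neuron fold changes 12 were negative, with a median of -0.10. The mean over 8 skeletal muscle markers was 7.10 in rhBMP-2/ACS replicate 3 and 5.93 to 6.03 in the other rhBMP-2/ACS rats. The part of these markers in the result was not tested.

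Between rhBMP-2/ACS and vehicle/ACS at 7 dps, 0 of 53 probes and 0% of all probes passed the limma test. At an unadjusted p below 0.05 there were 3 potassium channel probes (6.46% of all probes), all with overlapping groups, and at the thresholds of the study 0 (0.208% of all probes). The 3 were Kcnc2 probe 1, at 6.88, 6.91, 6.52 and 6.79 in rhBMP-2/ACS against 6.64, 6.25, 6.41 and 6.32 in vehicle/ACS (0.37, adjusted p = 0.54), the Kv2 pore Kcnb2 (0.43, adjusted p = 0.615) and Kcnh6 (0.26). For Kcnh2, which was lower in rhBMP-2/ACS at 3 dps, the 7 dps values were 7.10, 7.10, 7.02 and 6.98 in rhBMP-2/ACS and 6.68, 6.65, 7.10 and 7.30 in vehicle/ACS, the former inside the range of the latter.

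**Figure D4:**
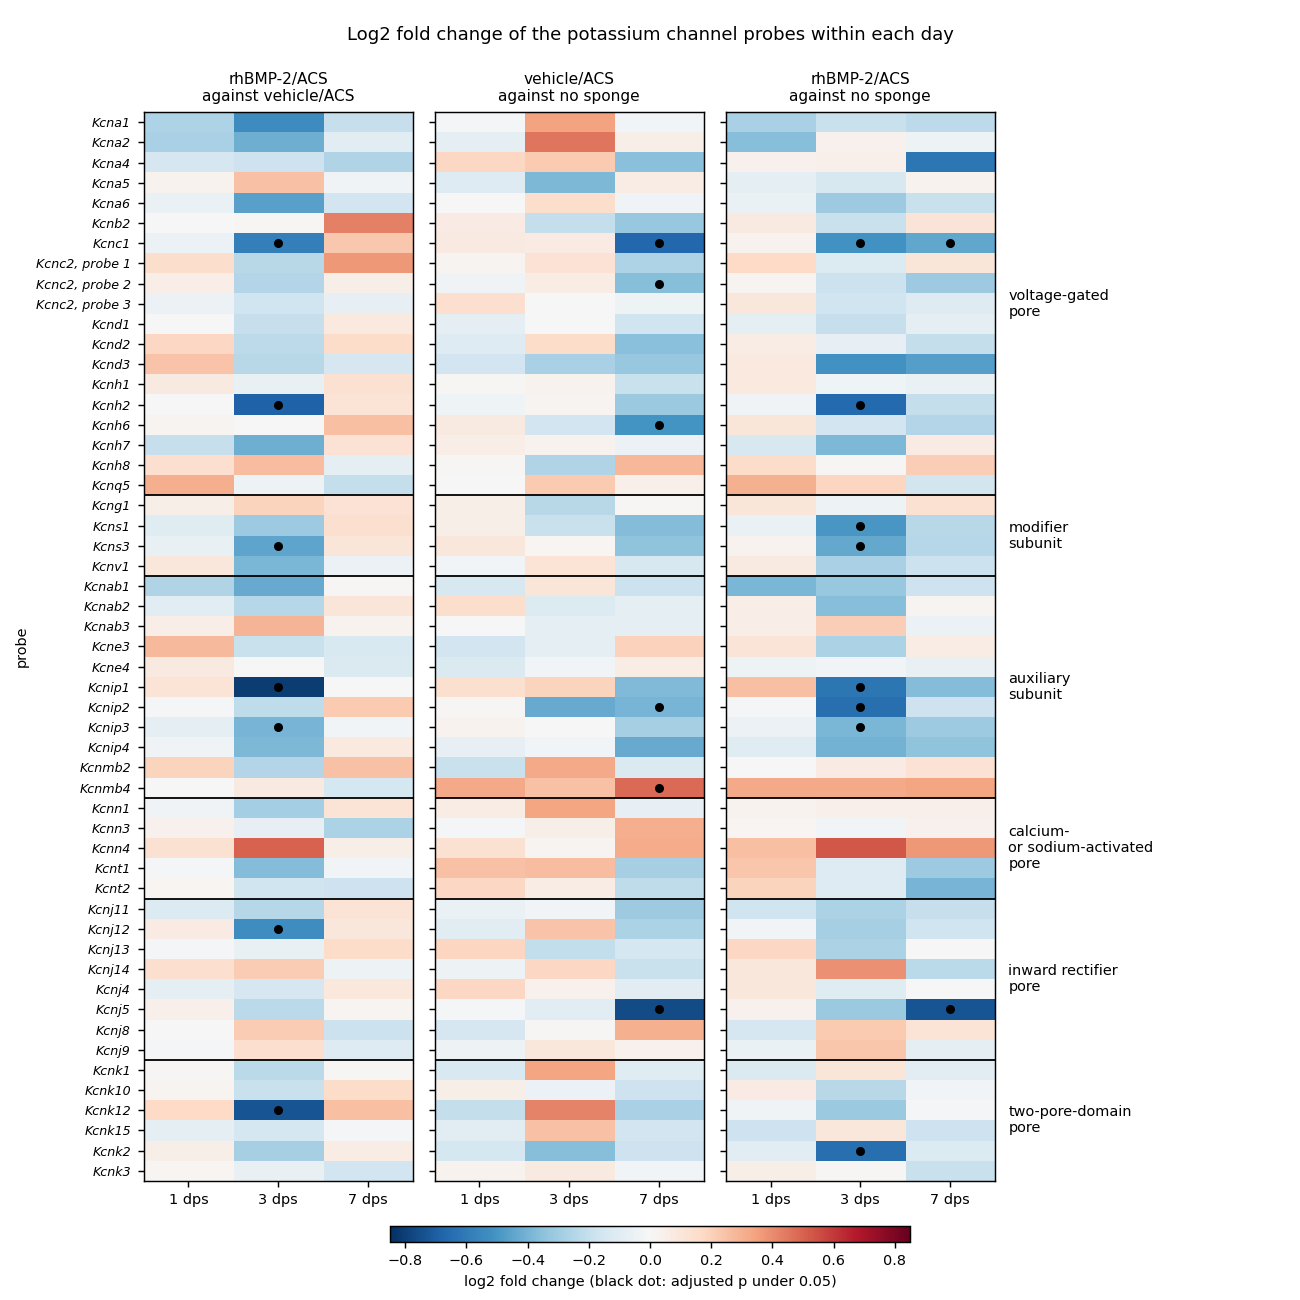
Log2 fold change (colour, blue for lower and red for higher in the first-named group) of each of the 53 potassium channel probes (rows, ordered by role) in the 9 within-day comparisons (columns), with a dot where the adjusted p was below 0.05. The Kcnj5 dots at 7 dps are bound by the detection rule. The dots fall in the columns at 3 dps that include rhBMP-2/ACS and in those at 7 dps that include no sponge, and 1 dot, that of Kcnmb4, stands on a higher value.

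Whether a treatment difference itself changed with the day was tested in the same fit. The difference between rhBMP-2/ACS and vehicle/ACS moved upward from 3 to 7 dps for 5 of 53 probes (9.43%, against 6.90% of all probes in either direction and 2.34% upward). The 5 were Kcnc1 (0.81, SE 0.175, adjusted p = 0.00539), Kcnh2 (0.80, SE 0.191, adjusted p = 0.0113), Kcnk12 (1.00, SE 0.255, adjusted p = 0.0175), Kcnj12 (0.63, SE 0.187, adjusted p = 0.0373) and Kcnc2 probe 1 (0.60, SE 0.172, adjusted p = 0.0305). Of these genes all but Kcnc2 had been called lower in rhBMP-2/ACS than in vehicle/ACS at 3 dps. Those calls rest on the same 3 dps arrays as this difference, so the match is in part built in. Without rhBMP-2/ACS replicate 3 at 3 dps, Kcnc1 alone passed (adjusted p = 0.0284), and without vehicle/ACS replicate 1 or 2 at 3 dps, vehicle/ACS replicate 2 at 7 dps or rhBMP-2/ACS replicate 1 at 7 dps the count was 3. From 1 to 3 dps 0 probes passed (1.16% of all probes were called), with 10 at an unadjusted p below 0.05 (15.6%), and the thresholds of the study gave 2 (3.33%). Leaving out rhBMP-2/ACS replicate 1 or 2 at 3 dps gave 3 or 2 calls here, and leaving out vehicle/ACS replicate 4 or rhBMP-2/ACS replicate 3 or 4 at 1 dps gave 1. The difference between vehicle/ACS and no sponge moved downward from 3 to 7 dps for Kcnc1 alone (-0.74, SE 0.175, adjusted p = 0.014), 1.89% of the 53 against 3.75% of all probes in either direction and 0.890% downward, and leaving out no sponge replicate 3 at 3 dps ended this call, while leaving out vehicle/ACS replicate 3 at 3 dps or replicate 4 at 7 dps gave 2. From 1 to 3 dps 0 probes passed for this pair of groups (0% of all probes), with 5 at an unadjusted p below 0.05 (8.55%) and 0 at the thresholds of the study (0.757%). Over the same interval from 3 to 7 dps, in rhBMP-2/ACS versus vehicle/ACS, the differences of 8 macrophage and 6 fibroblast markers, the endothelial markers Vwf, Esam and Sox18 and the glial marker Gfap moved downward, and those of the neuron markers Stmn2 and Nefm and the muscle marker Myh7 upward. In vehicle/ACS against no sponge 5 macrophage and 6 fibroblast markers moved upward. The part of these markers in the results was not tested.

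At 1 dps the Kcnc1 signal was 6.03, 6.11, 5.91 and 5.79 in rhBMP-2/ACS, 6.22, 6.07, 5.79 and 5.97 in vehicle/ACS and 6.02, 6.00, 5.81 and 5.90 in no sponge, the 3 groups lying over each other.

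Several genes well known in sensory neurons passed in no comparison. Kcnq5, the Kv7 gene kept here and a carrier of the M current, had wide spread, at 7.13, 7.12 and 6.49 in rhBMP-2/ACS, 7.32, 7.17 and 6.39 in vehicle/ACS and 7.44, 6.81 and 5.95 in no sponge at 3 dps (-0.04 between the first 2, SE 0.304, adjusted p = 0.95). Kcna1, the Kv1 partner of Kcna2, gave 5.03, 5.19 and 5.08 against 6.14, 5.56 and 5.19 in vehicle/ACS at 3 dps (-0.53, SE 0.240, adjusted p = 0.155), on arrays where its signal was near the detection limit. Kcnab2, a Kv1 beta subunit, had within-day differences from -0.36 to 0.15. The leak pore Kcnk3, which met the detection rule only in groups at 7 dps, differed by -0.17 between rhBMP-2/ACS and vehicle/ACS (SE 0.132, adjusted p = 0.875). The small-conductance calcium-activated pore Kcnn1 differed by -0.29 at 3 dps (SE 0.139, adjusted p = 0.185). Kcnt1, the Slack pore of the sodium-activated kind, differed by -0.37 at 3 dps (SE 0.190, adjusted p = 0.218).

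Proteins that work with these channels were followed as lists. Of 10 kept channel partners, Abcc9, the sulfonylurea receptor of vascular potassium channels, was higher and Cntn2, an axonal adhesion protein that gathers Kv1 pores, lower in rhBMP-2/ACS against no sponge at 3 dps, and Abcc9 was higher and Lrrc52, a gamma-type channel subunit, lower in vehicle/ACS against no sponge at 7 dps. Of 9 kept genes of the sodium-potassium pump, its FXYD regulators and cation-coupled transporters, Atp1b2 and Fxyd1 were higher and Atp1b1 lower in rhBMP-2/ACS versus vehicle/ACS at 3 dps. Against no sponge on that day Atp1b2 was again higher and Atp1b1 lower in rhBMP-2/ACS. At 7 dps Fxyd6 was higher and Fxyd2 lower in vehicle/ACS against no sponge, and Fxyd6 was higher in rhBMP-2/ACS against no sponge. Over all probes, 10.5% and 7.55% were called in rhBMP-2/ACS at 3 dps against vehicle/ACS and no sponge. At 7 dps, 10.2% were called in vehicle/ACS and 3.63% in rhBMP-2/ACS against no sponge. Of the hyperpolarization-activated channels Hcn3 was kept and was called in no within-day comparison.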

How the data were processed

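RNA from L4 and L5 dorsal root ganglia was hybridised to rat bead arrays, with 1 array per rat. The authors exported from GenomeStudio a table that was not normalized, which gives for each probe and array the deposited mean bead intensity and a detection p-value. They also deposited a normalized intensity table, used here as an alternative. GEO's label names a different chip in its protocol from the rat array the study describes, and the probes matched the rat array's annotation. The GenomeStudio version, slides and scan dates were not given in the sources used here.

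Background was removed by normexp, for which the negative-control signal was estimated from detection p, and intensities were offset by 16, quantile-normalized and taken to log2 (neqc in limma 3.58.1, R 4.3.3). The offset shrinks fold changes of dim probes. A probe was kept when detected (p below 0.05) on 75% or more of the arrays in 1 or more groups. One model with 9 groups was fitted to all 33 arrays, with trended eBayes moderation and Benjamini-Hochberg adjustment within each comparison at 0.05. It gave 9 within-day comparisons and 4 differences of such comparisons between days. The fit had 24 residual degrees of freedom, and the number of arrays limits its precision. The procedure was tested on simulated data with independent noise for each probe. These held no shift shared by many probes of an array, so the test says nothing of calls that lean on such an array. Alternatives were the authors' normalized table (values below 16 set to 16), equal medians, no background correction, no detection filter, quality weights, the compared groups alone, the replicate number as a block within each day, the thresholds of the study, and each array left out.

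Named genes were those past the threshold in any comparison or difference, up to 5 for each with the lowest unadjusted p below 0.05 and no overlap between groups, and 24 genes known in sensory ganglia, of which 22 were on the array and 17 were kept. The members, marker lists and tests were chosen with earlier results of these data known. Gene symbols came from the platform annotation, by which 13793 probes had a symbol and 8730 had none, and promoters from RefSeq tables. Promoters, figures and counts used Python 3.11.15, pandas 2.3.3 and matplotlib 3.10.9. Coordinates are given only for the promoters shown, in build GRCr8. None are given for the probes because the sources used here name no genome build for the array.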

Additional observations from a re-analysis of the deposited data

Results flagged for a closer look

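Among 126 sets of 4 rats examined for the named probes, 7 held a rat whose log2 signal lay far from the other 3, and chance alone marks about 1 in 20 such sets. At 1 dps these were Kcnj12 in no sponge replicate 2 (6.43, the others 6.75 to 6.80), Kcnk2 in vehicle/ACS replicate 2 (7.81, the others 8.17 to 8.21), Kcnj5 in vehicle/ACS replicate 2 (4.67, the others 4.83 to 4.86) and Kcnj5 in rhBMP-2/ACS replicate 4 (5.41, the others 4.61 to 4.72). At 7 dps they were Kcnk2 in rhBMP-2/ACS replicate 4 (8.27, the others 8.04 to 8.08), Kcnip2 in the same rat (8.31, the others 8.70 to 8.76) and Kcnmb2 in no sponge replicate 4 (6.06, the others 5.73 to 5.75).

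In 6 cases a treatment difference passed the limma test of a change between 2 days. Between 3 and 7 dps the difference of rhBMP-2/ACS versus vehicle/ACS moved by 0.63 for Kcnj12, 1.00 for Kcnk12, 0.80 for Kcnh2, 0.60 for Kcnc2 and 0.81 for Kcnc1 on the log2 scale. The difference of vehicle/ACS against no sponge moved by -0.74 for Kcnc1 over the same interval. Most of these calls depended on the fit. Of those for rhBMP-2/ACS versus vehicle/ACS, Kcnc1 alone passed without rhBMP-2/ACS replicate 3 at 3 dps. In a fit of the compared groups only, Kcnc1 and Kcnk12 passed. The Kcnc1 call for vehicle/ACS against no sponge was lost with equal medians.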

How the results depend on the processing

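Of the named probes, 37 pairs of a probe and a comparison were followed over the alternatives, and none of these reversed its sign. Other named probes were not followed, apart from Kcnn4 with equal medians. Of 551 values of the 37 pairs, 410 stayed on their side of the threshold, 133 no longer passed and 8 newly passed. The causes of the changes below were not tested, and the closeness of several signals to background limits the dim probes.

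For rhBMP-2/ACS versus vehicle/ACS at 3 dps, the count of 7 became 3 with equal medians, 3 with quality weights, 0 with the compared groups only and 2 at the thresholds of the study, and 1 to 10 with 1 array left out. Against no sponge at 3 dps, the count of 8 became 5 in the authors' normalized table, 3 with equal medians, 4 without the detection filter, 4 with weights, 0 with the compared groups only and 0 at the thresholds of the study, and 1 to 7 with 1 array left out. For vehicle/ACS against no sponge at 7 dps, the count of 6 became 3 with equal medians, 1 at the thresholds of the study and 4 to 8 with 1 array left out. For rhBMP-2/ACS against no sponge at 7 dps, the count of 2 became 1 with equal medians, 5 with weights, 1 at the thresholds of the study and 1 to 3 with 1 array left out. The counts of 6 and 2 at 7 dps each include Kcnj5, which is bound by the detection rule.

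For the difference between 3 and 7 dps in rhBMP-2/ACS versus vehicle/ACS, the count of 5 became 3 with equal medians, 3 without the detection filter, 2 with the compared groups only and 1 to 7 with 1 array left out. Between 1 and 3 dps the count of 0 became 2 at the thresholds of the study and 0 to 3 with 1 array left out. For vehicle/ACS against no sponge between 3 and 7 dps, the count of 1 became 2 in the authors' table, 0 with equal medians, 2 with weights and 0 to 2 with 1 array left out. The other counts were 0 in every fit that left out 1 array.

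Replicate numbers were not taken to pair the rats. Of 33 same-numbered pairs, 6 correlated above 0.1 in their deviations (range -0.181 to 0.244). At 3 dps the same-numbered pairs ran from -0.036 to 0.204, and the other pairs from -0.2 to 0.121. The pairs of replicate 3 on that day gave 0.149, 0.204 and 0.164. With the number as a block the difference between 3 and 7 dps in rhBMP-2/ACS versus vehicle/ACS gave 3 calls, and the other counts stayed within 1.5 times.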
